A study of Homo sapiens with 4 samples.

Results

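The genes EEA1, GOLGA4, GOLGB1, GCC2, TRIP11 and CCDC88A encode 6 long coiled-coil proteins of endosomes and the Golgi apparatus, described here through the N6-methyladenosine (m6A) intervals listed on their transcripts. Their intervals were taken from the deposited lists by genome window and strand (hg19), which gave 47 of the 13691 intervals of the METTL3 knockdown list and 23 of the 11038 intervals of the CSE list. The genes were chosen with the interval lists in view, so the numbers by which the lists differ at these genes describe them and support nothing by themselves. The assay was MeRIP-seq: an m6A antibody pulls down fragments of poly(A) RNA (IP), which are sequenced next to untreated RNA of the same cells (input). The cells were 16-HBE, a human bronchial epithelial line, and per the labels every sample had 24 h in medium with 5% cigarette smoke extract (CSE). In the METTL3 knockdown condition METTL3, the catalytic subunit of the m6A methyltransferase, was reduced with siRNA, and the CSE condition carried the wild-type label. No control siRNA is named for the CSE condition, so METTL3 reduction and siRNA transfection cannot be told apart, and no condition went without smoke extract.

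Each condition had an IP library, an input library and 1 deposited list. The series' design text states 3 replicates, and whether the list pools them is not stated, so no value below has a replicate error and no test between conditions was possible. Depth per library is unknown, and expression was not part of the lists. The amount of each transcript, the METTL3 transcript and the markers of the cell type could therefore not be read, and more m6A per transcript cannot be told apart from more of the transcript.

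Tethering proteins of the coiled-coil class are long dimers that stand out from a membrane and catch passing vesicles before fusion. EEA1 binds the small GTPase RAB5 and the endosomal lipid phosphatidylinositol 3-phosphate and holds early endosomes together for fusion. GOLGA4 (golgin-245) and GCC2 (GCC185) sit on the trans-Golgi through a GRIP domain, GOLGB1 (giantin) is anchored in Golgi membranes, and TRIP11 (GMAP-210) acts at the cis-Golgi. CCDC88A (girdin) is a coiled-coil protein that binds actin and modulates heterotrimeric G proteins, and is not a tether in the strict sense. As background, m6A in messenger RNA is known to be frequent in long internal exons and around stop codons, in the sequence context DRACH: A, G or T, then A or G, then the methylated A, then C, then A, C or T.

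The listed intervals at these genes were whole exons. The lists of both conditions together held 50 distinct intervals, and 49 of them (98%, exact 95% binomial interval 89.4 to 99.9, counting error only) had the length of an annotated exon of the gene and also the spacing of that gene's exons, both to the base. Exon lengths were taken from GENCODE release 29. For comparison, a width at these genes equalled some exon length of one of the other genes in 15.2% of pairings. Other genes had such matches too: for the other tether genes described further on, 79 of 85 distinct intervals matched an exon in the same way, and over the whole lists, where at least 2 matched intervals per gene were needed and the gene was not given beforehand, 51.2% of 17471 distinct intervals did. The exception was a 476 nt interval of GCC2 in the CSE list, which had no exon of that length at that spacing. Exon numbers below count from the 5′ end of the coding transcript that holds the most matched exons (EEA1-201, GOLGA4-201, GOLGB1-202, GCC2-201, TRIP11-201 and CCDC88A-202). One matched GOLGB1 interval of 126 nt, found in both lists, belongs to another GOLGB1 transcript and has no number. Where in an exon the enrichment lay is not given by intervals of this kind.

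The exons below show the run of consecutive EEA1 exons with 4 of the gene's 11 knockdown-only exons, next to a shared one. Exon 24 was listed in both conditions, and the next exons towards the 5′ end, 23 to 20, with METTL3 knockdown only. Positions are those of the listed intervals in hg19, counted from 1, and sequences are those of the GENCODE transcripts, written 5′ to 3′ as DNA with every DRACH match in capitals. The search used the transcript strand, and matches may overlap.
EEA1 exon 24 (chr12:93174056-93174187, minus strand, 132 nt): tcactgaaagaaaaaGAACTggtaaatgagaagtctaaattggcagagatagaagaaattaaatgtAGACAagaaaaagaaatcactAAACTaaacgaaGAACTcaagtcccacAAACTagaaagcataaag
EEA1 exon 23 (chr12:93175726-93175911, minus strand, 186 nt): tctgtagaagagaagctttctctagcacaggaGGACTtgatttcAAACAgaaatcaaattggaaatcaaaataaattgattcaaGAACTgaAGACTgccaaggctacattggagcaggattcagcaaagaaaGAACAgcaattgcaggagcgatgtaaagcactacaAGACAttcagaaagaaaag
EEA1 exon 22 (chr12:93181643-93181825, minus strand, 183 nt): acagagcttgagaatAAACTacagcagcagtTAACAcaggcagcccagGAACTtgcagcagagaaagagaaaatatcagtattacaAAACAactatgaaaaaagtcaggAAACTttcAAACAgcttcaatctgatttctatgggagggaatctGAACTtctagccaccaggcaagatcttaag
EEA1 exon 21 (chr12:93192668-93192862, minus strand, 195 nt): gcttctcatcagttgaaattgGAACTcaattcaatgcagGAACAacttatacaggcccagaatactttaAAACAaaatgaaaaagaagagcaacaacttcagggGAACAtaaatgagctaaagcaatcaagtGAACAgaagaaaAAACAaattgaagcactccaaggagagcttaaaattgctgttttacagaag
EEA1 exon 20 (chr12:93195376-93195477, minus strand, 102 nt): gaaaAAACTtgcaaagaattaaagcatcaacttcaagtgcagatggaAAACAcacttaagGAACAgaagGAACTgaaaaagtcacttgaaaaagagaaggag

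Exon 24 held 5 DRACH matches and exons 23, 22, 21 and 20 held 6, 7, 6 and 4. Such matches are common: of the 1211 internal coding exons of 132 nt in all protein-coding genes 94.1% held at least 1, and of the 1412 of 102 nt 89.7%. Exons 23 and 25 of EEA1 have the same length of 186 nt, but only 34.4% of their positions carry the same base, so they are not copies of each other.

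The next set shows neighbouring exons of TRIP11 that were listed in opposite conditions, exon 13 with METTL3 knockdown only and exon 12 in CSE only, beside the short exon 9, listed with METTL3 knockdown only. It also holds the 2 shortest knockdown-only exons of GOLGA4.
TRIP11 exon 13 (chr14:92465584-92465777, minus strand, 194 nt): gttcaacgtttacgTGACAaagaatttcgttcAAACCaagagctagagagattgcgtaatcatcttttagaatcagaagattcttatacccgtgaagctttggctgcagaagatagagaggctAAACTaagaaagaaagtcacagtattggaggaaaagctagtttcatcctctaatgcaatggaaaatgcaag
TRIP11 exon 12 (chr14:92466312-92466452, minus strand, 141 nt): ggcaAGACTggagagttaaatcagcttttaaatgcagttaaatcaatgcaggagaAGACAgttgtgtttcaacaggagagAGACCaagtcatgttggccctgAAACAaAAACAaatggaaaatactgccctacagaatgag
TRIP11 exon 9 (chr14:92477330-92477416, minus strand, 87 nt): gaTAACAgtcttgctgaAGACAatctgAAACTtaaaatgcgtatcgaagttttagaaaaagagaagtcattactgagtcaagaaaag
GOLGA4 exon 6 (chr3:37330726-37330782, plus strand, 57 nt): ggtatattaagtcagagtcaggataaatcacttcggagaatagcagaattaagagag
GOLGA4 exon 19 (chr3:37379157-37379225, plus strand, 69 nt): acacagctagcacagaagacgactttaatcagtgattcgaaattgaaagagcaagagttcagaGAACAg

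GOLGA4 exon 6 was the only one of the 27 knockdown-only exons without a DRACH match. Among the 663 internal coding exons of 57 nt in all protein-coding genes, 74.4% held at least 1 match.

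More exons of these genes were listed with METTL3 knockdown than in CSE. METTL3 knockdown had 47 intervals and CSE had 23, which is 2.04 times as many (1.22 to 3.53). The whole lists had a ratio of 1.24 (1.21 to 1.27). Both ranges are 95% intervals from the exact binomial share and take in no source of error but counting. They take the counts of the lists as independent, though shared intervals, 20 at these genes, count in both. They are therefore no valid error of the ratio. Of the 47 knockdown intervals 27 (57.4%) had no overlap in the CSE list, and 35.5% of all knockdown intervals had none. Of the 23 CSE intervals 3 (13%) had no overlap in the knockdown list, against 19.9% of all CSE intervals. The remaining 20 were listed in both, each with identical start and end, where 82.1% of all overlapping knockdown intervals had identical borders. As the genes were chosen on this contrast, nothing is read from these shares. Covered length differed less, 24989 nt with METTL3 knockdown and 21528 nt in CSE (1.16 times).

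**Figure D1:**
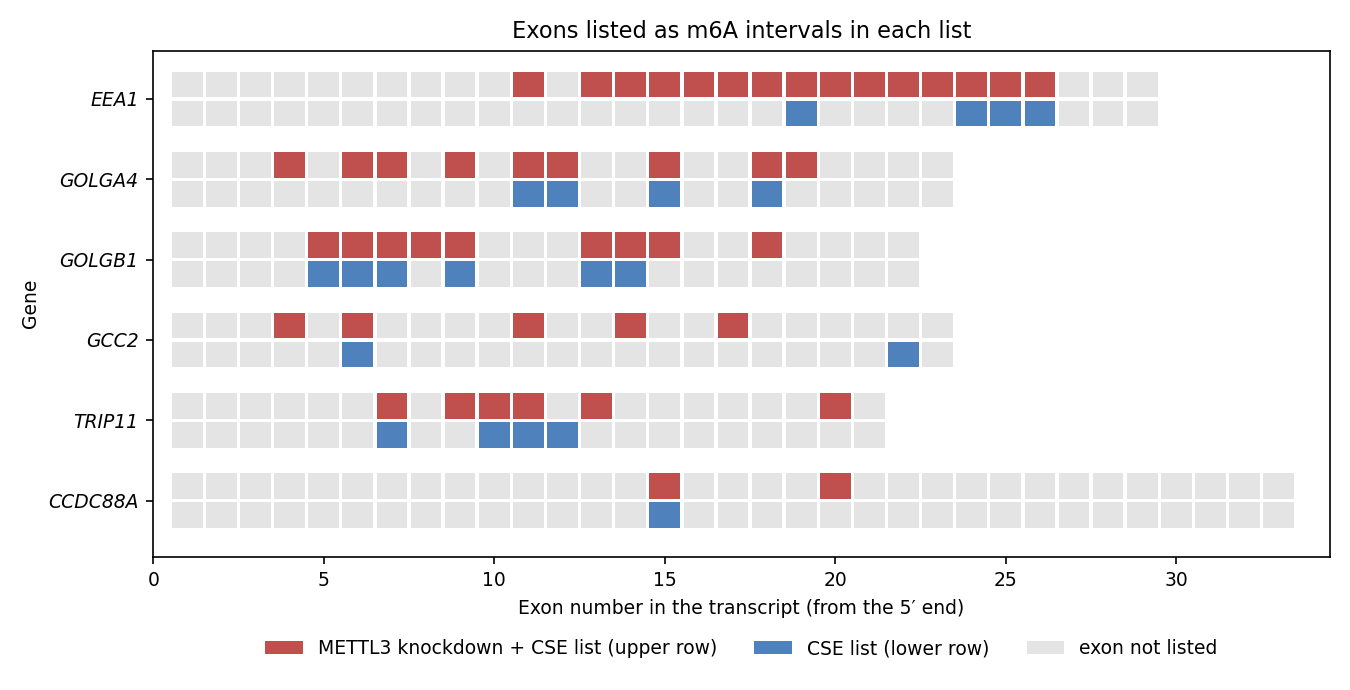
Exons of the 6 genes, numbered from the 5′ end of 1 transcript per gene on the x axis, coloured where they were listed in the METTL3 knockdown list (upper row of each gene) and in the CSE list (lower row). EEA1 has a run of 14 listed exons with METTL3 knockdown and 4 listed exons in CSE, and no first or last exon is coloured in any gene.

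EEA1 had the largest difference of the 6. On the minus strand of chromosome 12 it had 15 intervals with METTL3 knockdown and 4 in CSE. With METTL3 knockdown, exons 13 to 26 of its 29 exons were listed without a gap, and exon 11 beside them. In CSE only exons 24, 25, 26 and 19 were listed, and all 4 were also in the knockdown list. As background, most of the EEA1 protein is rod-like coiled coil, with its lipid-binding FYVE domain at the C-terminal end.

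The authors' score of each interval, whose scale is not stated, was compared here within a list only, so values of different lists stand side by side without a comparison of size. The 4 shared EEA1 exons, in the order 26, 25, 24 and 19, scored 455, 850, 638 and 483 in the knockdown list, and 203, 138, 59.7 and 96.2 in the CSE list. The median over the whole list was 280.1 in the knockdown list and 223.8 in the CSE list. All 4 thus stood above the median of the knockdown list and below that of the CSE list.

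The 11 EEA1 exons listed with METTL3 knockdown only scored from 50.8 (exon 13) to 414 (exon 23). Exon 17, with 284, was the other one above the list's median. Exon 11, the longest internal exon of EEA1 at 339 nt, scored 53.7, close to the lowest score of the list, 50.02.

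GOLGA4, on the plus strand of chromosome 3, had 9 intervals with METTL3 knockdown and 4 in CSE. Its exon 15 (chr3:37365079-37369316), a single coding exon of 4238 nt, was listed in both conditions and scored 3100 in each list, a value at which scores piled up. Exons 11, 12 and 18 were also shared, with scores of 400, 460 and 306 in the knockdown list and 229, 355 and 65.05 in the CSE list. The 5 exons listed with METTL3 knockdown only were 57 to 315 nt long: exons 4, 6, 7 and 9 towards the 5′ end, with scores of 56.0, 172, 82.7 and 68.4, and exon 19 with 499. Exon 19, 69 nt long, had the highest score of any knockdown-only interval of the 6 genes.

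GOLGB1, on the minus strand of chromosome 3, had 10 intervals with METTL3 knockdown and 7 in CSE, and all 7 were shared. Its internal exons 13 (chr3:121412588-121417776, 5189 nt) and 14 (chr3:121409517-121411428, 1912 nt) both scored 3100 in the knockdown list, against 3100 and 2296 in the CSE list. Exons 5, 6 and 7 were short and shared, and of these exon 5 scored highest, 926 in the knockdown list and 469 in the CSE list. The exons listed with METTL3 knockdown only were 8, 15 and 18, with scores of 56.1, 175 and 285. Exon 8 filled the gap between shared exons, so that exons 5 to 9 formed an unbroken run with METTL3 knockdown.

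GCC2, on the plus strand of chromosome 2, had 5 intervals with METTL3 knockdown and 3 in CSE, and a single one was shared. That was exon 6 (chr2:109086107-109088572), a coding exon of 2466 nt that scored 596 in the knockdown list and 705 in the CSE list. Exons 4, 11, 14 and 17 were listed with METTL3 knockdown only, with scores of 61.6, 163, 152 and 78.9. In CSE only, exon 22 (202 nt, score 115) and the interval of 476 nt without a matching exon (score 84.2) were listed. GCC2 was the one gene of the 6 whose covered length was smaller with METTL3 knockdown, 2922 nt against 3144 nt in CSE.

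TRIP11, on the minus strand of chromosome 14, had 6 intervals with METTL3 knockdown and 4 in CSE. Exon 11 (chr14:92469763-92472792, 3030 nt) was shared and scored 3100 in the knockdown list and 1189 in the CSE list. Exons 7 and 10 were shared too, with scores of 840 and 117 in the knockdown list and 188 and 51.2 in the CSE list. Exons 9, 13 and 20 were listed with METTL3 knockdown only, with scores of 124, 389 and 77.4, and exon 12 in CSE only, with 112.

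CCDC88A, on the minus strand of chromosome 2, had 2 intervals with METTL3 knockdown and 1 in CSE, out of 33 exons. Its longest internal exon, exon 15 (chr2:55561230-55562300, 1071 nt), was shared and scored 1321 in the knockdown list and 292 in the CSE list. Exon 20, 278 nt long, was listed with METTL3 knockdown only and scored 105. It thus had the fewest listed exons and the smallest difference of the 6 genes.

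**Figure D2:**
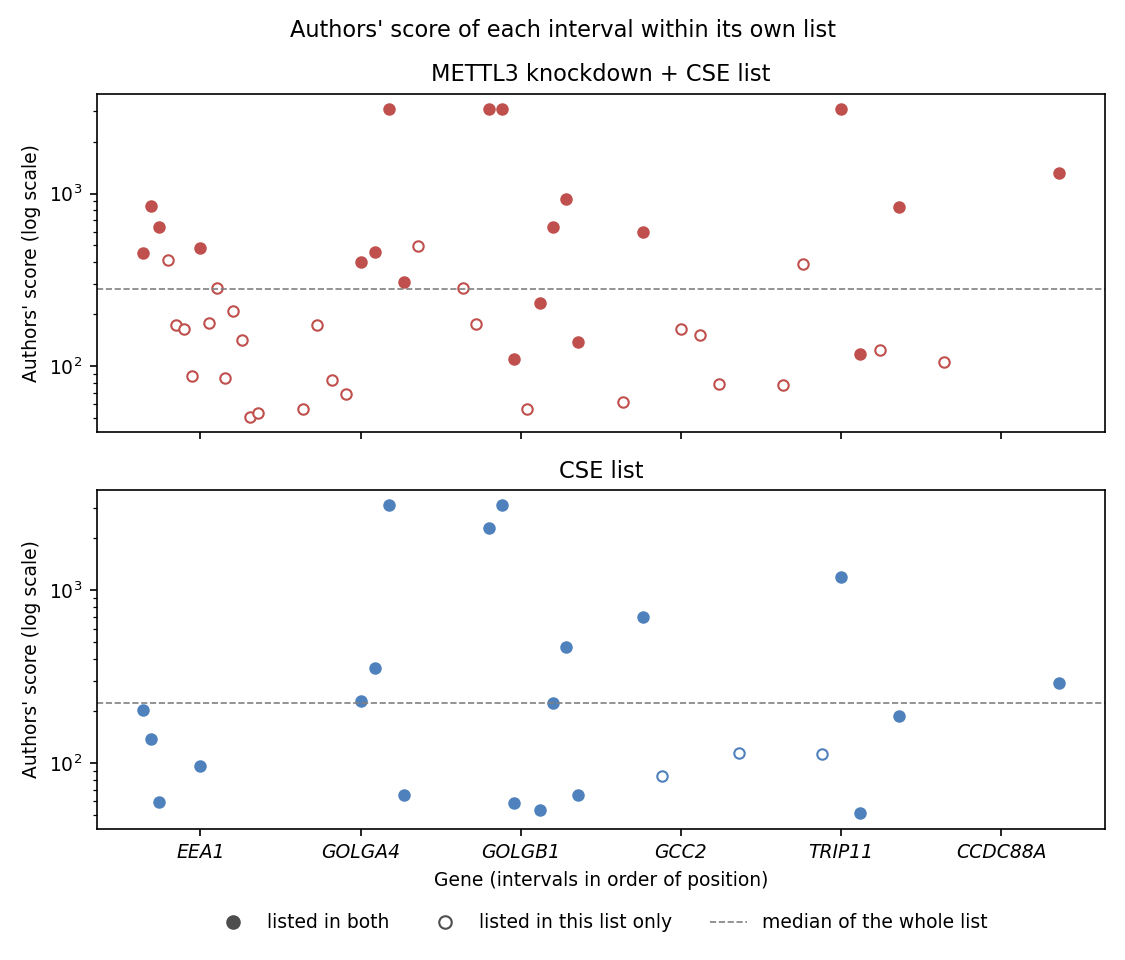
Authors' score (log scale) of every interval of the 6 genes within its own list, the METTL3 knockdown list above and the CSE list below, filled where the interval is in both lists and open where it is in 1, with a dashed line at the median of the whole list. In the knockdown list the open circles end at 499 and the filled ones reach 3100, and the scales of the lists are not known to be shared.

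Within the knockdown list, shared intervals of these genes reached higher scores than knockdown-only ones. The 27 knockdown-only intervals scored from 50.8 to 499 with a median of 142.4, and the 20 shared ones from 109 to 3100 with a median of 617.1. In the CSE list the 20 shared intervals scored from 51.2 to 3100 with a median of 213.8. Both lists had a lowest score of 50.02 and a highest of 3233.06. Some shared intervals thus lay close to the lowest score of the CSE list, such as TRIP11 exon 10 with 51.2 and GOLGB1 exon 7 with 53.5. Whether m6A changed in the shared exons was not tested. Of the 27, 5 lay above the median of the whole knockdown list (18.5%), beside 18.8% of all knockdown-only intervals.

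Very long internal exons were listed in both conditions and shorter ones, of up to 339 nt, made up the knockdown-only class. The 6 genes have 6 internal exons over 1000 nt (GOLGB1 has a pair, GOLGA4, GCC2, TRIP11 and CCDC88A one each, EEA1 none), and all 6 were listed in both. Among 380 genes with matched exons and an internal exon over 1000 nt, the longest internal exon was listed in both for 68.9%. Of the 127 internal exons of up to 300 nt, 35 were listed with METTL3 knockdown and 12 in CSE. The same shares over all genes are not given here, so nothing is read from these counts.

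Knockdown-only intervals were 57 to 339 nt wide with a median of 156 nt, and 25 of 27 (92.6%, exact 95% interval 75.7 to 99.1) were of up to 300 nt. Over the whole lists 69.7% of knockdown-only intervals were of up to 300 nt. Most internal exons of these transcripts, listed or not, were that short as well, 127 of 139. The share thus does not set the knockdown-only intervals apart from the internal exons of their own genes. Shared intervals were between 114 and 5189 nt wide (median 226 nt), so the widths of the classes overlapped below 339 nt. The coding exons of these transcripts that were in neither list, 89 of 137, had a median length of 117 nt and ranged from 40 to 460 nt.

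**Figure D3:**
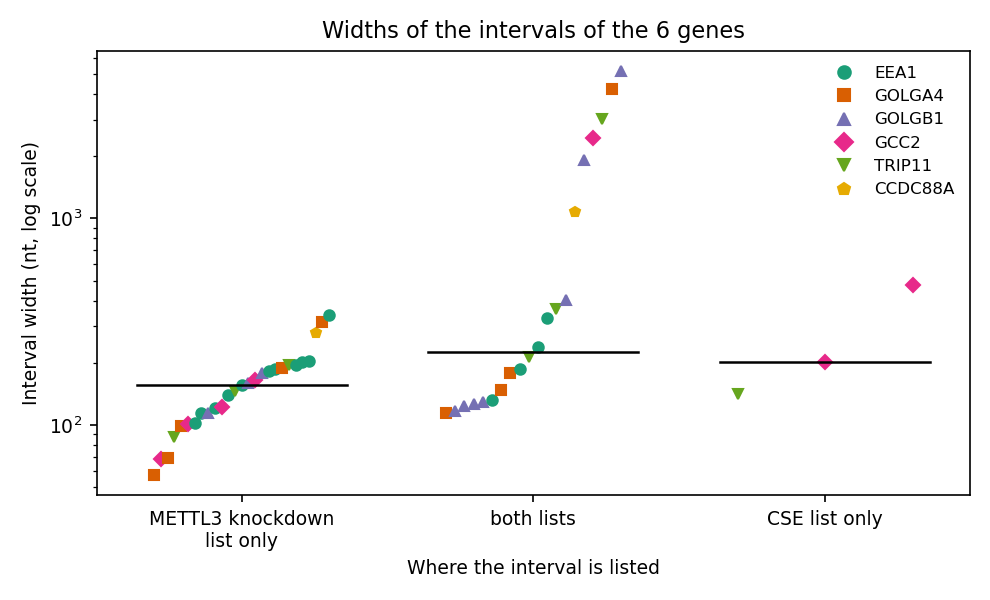
Width of each interval (nt, log scale) by the list or lists that hold it, with 1 symbol per gene and a line at the median. Intervals over 1000 nt appear only among those found in both lists, and knockdown-only intervals end at 339 nt.

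No first exon and no last exon of the 6 transcripts was listed in either condition. How often such exons were listed over all genes is not given here, so this is not read as particular to these genes. The last exons, which hold the stop codon or the sequence after it, are 5497 nt long in EEA1, 3903 in TRIP11, 3323 in CCDC88A, 1839 in GCC2, 1412 in GOLGB1 and 666 in GOLGA4. All but that of GOLGA4 are over 1000 nt. The listed exon nearest to the 3′ end was exon 22 of 23 in GCC2, in CSE only, and exon 20 of 21 in TRIP11, with METTL3 knockdown only. Whether the deposited lists hold every call the authors made is not stated, and a call outside the lists would not be seen.

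The 6 genes share a low GC content. The coding exons of GCC2 and TRIP11 had 36.3% and 36.8% G and C, those of CCDC88A, EEA1 and GOLGA4 37.8%, 38.2% and 38.2%, and those of GOLGB1 41.3%. The median of 13875 protein-coding genes was 51%, and the share of genes with a lower value ran from 0.995% for GCC2 to 13.4% for GOLGB1. Within the genes, the classes of exons differed little. The median GC content was 38.1% for knockdown-only coding exons (32.4 to 53.5), 39.1% for shared ones (31.8 to 47.2) and 39.7% for unlisted ones (28.8 to 54.4), ranges that overlap almost wholly.

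DRACH matches were about as dense in all classes of exons. There were 29 per 1000 nt in knockdown-only coding exons, 27.8 in shared ones and 28.5 in unlisted ones, beside 20.4 over 157939 internal coding exons of all protein-coding genes. A match was present in 26 of 27 knockdown-only, 19 of 19 shared, 2 of 2 CSE-only and 85 of 89 unlisted exons. The letters GGAC occurred in 5 of 27 knockdown-only, 10 of 19 shared, 0 of 2 CSE-only and 18 of 89 unlisted exons. For comparison at equal length, only internal exons with at least 20 internal coding exons of the same length over all protein-coding genes were used. GGAC was then present in 5 of 27 knockdown-only exons (18.5%), 3 of 11 shared ones (27.3%) and 17 of 88 unlisted ones (19.3%), where the exons of the same lengths over all genes averaged 49.4%, 52.6% and 40.9%. All 3 classes were thus below exons of their length, and the GC content of these genes, given above, was low as well; its part in this was not tested. Among the longest exons GOLGA4 exon 15 held 10 of them and GOLGB1 exon 13 held 7, while CCDC88A exon 15, at 1071 nt, held 0. These letters describe the sequence and do not locate a methylated base.

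Names of the deposited intervals carry a running number, shared by both strands, that rises along each chromosome, and most numbers are not listed. The highest number was 48847 in the knockdown list, which holds 13691 intervals, and 49879 in the CSE list, which holds 11038. The longer list thus had the lower highest number. At EEA1, alone among these genes, the knockdown intervals, 15 in number, had consecutive numbers with none missing. In CSE exactly 4 numbers were missing between exons 24 and 19, the stretch that holds the 4 knockdown-only exons 23 to 20. A single CSE number was missing in each stretch that holds GOLGB1 exon 8 and TRIP11 exon 9. A stretch ran from one listed CSE interval to the next on the chromosome, on either strand, and could reach beyond the gene. That of GOLGA4 exon 19 ran past the gene's last CSE interval and had 18 missing numbers. The 27 knockdown-only intervals fell into 11 stretches of the CSE numbering, with 74 missing numbers in all. Each stretch had at least as many missing numbers as knockdown-only intervals. Over the whole lists this held for 92.5% of the 4836 knockdown-only intervals that lie between CSE intervals. If the numbers count calls, an unlisted CSE call at any of the 27 positions cannot be told apart from no call. The CSE-only intervals were not alike in this. At TRIP11 exon 12 the knockdown numbers on either side were consecutive, so no knockdown number was missing there. In GCC2, 1 knockdown number was missing in the stretch of the interval without a matching exon, and 5 in that of exon 22.

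Set beside all genes whose intervals could be matched to exons, the 6 spread from the middle to the upper end. Matching by width and spacing placed 8940 of the 17471 distinct intervals (51.2%) and gave 2427 protein-coding genes with at least 2 matched intervals. Of these, 54.9% had more exons in the knockdown list, 15.4% had fewer, and 10.1% had at least 3 more. The median difference was 1 exon. For the 6 genes the median was 2.5 over all their intervals, a different measure: GCC2 differed by 2 in intervals and by 3 in matched exons. EEA1, with 11 more, was exceeded by 2 genes, GOLGA4 with 5 more by 25, GCC2 and GOLGB1 with 3 more matched exons by 106, TRIP11 with 2 more by 244 and CCDC88A with 1 more by 651. Without EEA1 the 6 genes' knockdown-only intervals numbered 16 in place of 27, and the ratio of interval numbers was 1.68 in place of 2.04.

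**Figure D4:**
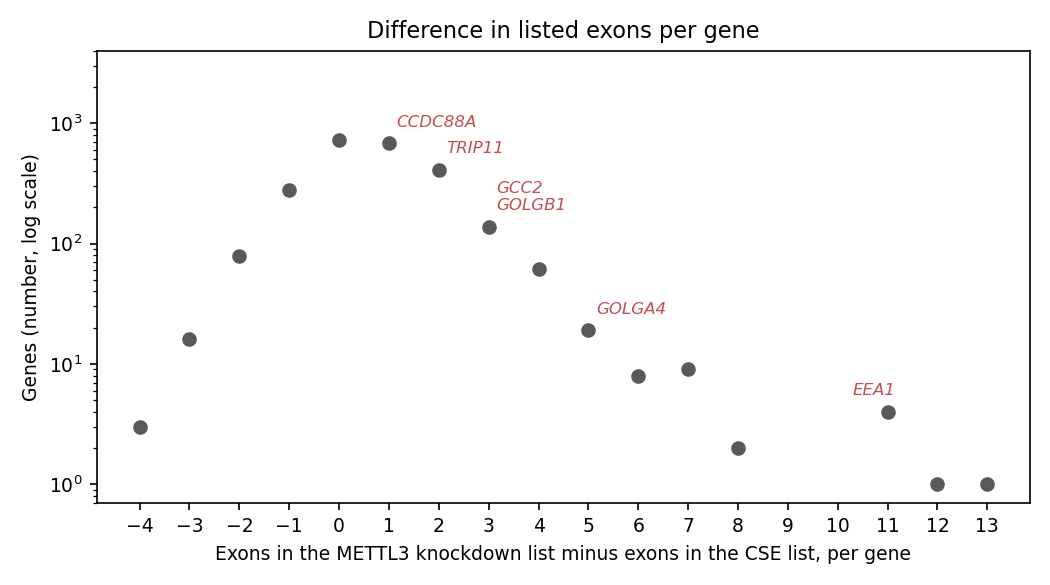
Number of protein-coding genes (log scale) at each difference in listed exons, METTL3 knockdown list minus CSE list, over 2427 genes with matched exons, with the 6 genes named at their values. EEA1 stands at 11, GOLGA4 at 5, and the others between 1 and 3. The most common difference is 0, with 721 genes.

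Other genes of vesicle tethering showed a smaller difference in number. Nothing is read from this, since the 6 genes were chosen on this contrast. A list of 15 further golgins, GRASP proteins, endosomal RAB5 effectors, motor adaptors and the paralogue of CCDC88A was used, with hg19 windows set from general knowledge of the genes' positions, since no hg19 annotation was used. Of these windows 14 matched the annotated gene in chromosome, strand and length, and 12 of the 14 also held at least 1 interval that matched an exon of the gene. The other two, BLZF1 with 1 interval that matched no exon and GORASP1 with none, had no such check of their place. Without them the numbers were 77 and 63. Together the 14 had 78 intervals with METTL3 knockdown and 63 in CSE, 1.24 times as many (0.877 to 1.75), the ratio of the whole lists. This range too counts shared intervals in both lists and is no valid error of the ratio. Of the 78, 21 (26.9%) were knockdown-only, and 6 of the 63 were CSE-only. More intervals with METTL3 knockdown were listed for 8 of the 14 genes, equal numbers for 4 (GOLGA2, GOLGA5, TMF1 and BICD2), fewer for GORASP2 and none in either list for the window of GORASP1, names given after their values were seen. The median difference was 1.

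By their pair of interval numbers, GOLGA1 and USO1 were nearest to the 6 genes. GOLGA1 (golgin-97, a GRIP domain golgin) had 6 intervals with METTL3 knockdown and 4 in CSE, the same numbers as TRIP11. USO1 (p115, a tether of transport vesicles at the Golgi) had 5 and 3, as GCC2. GOLGA2 (GM130, a cis-Golgi golgin) came next with 2 and 2, at a distance of 1 from CCDC88A. The largest differences in the list were those of HOOK1, an adaptor that links endosomes to dynein, with 5 intervals with METTL3 knockdown and 0 in CSE, followed by CCDC88C, GOLGA1, RABEP1 (a RAB5 effector of early endosomes) and USO1, which tied with 2 more each. CCDC88C, the paralogue of CCDC88A, had 12 intervals with METTL3 knockdown and 10 in CSE.

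**Figure D5:**
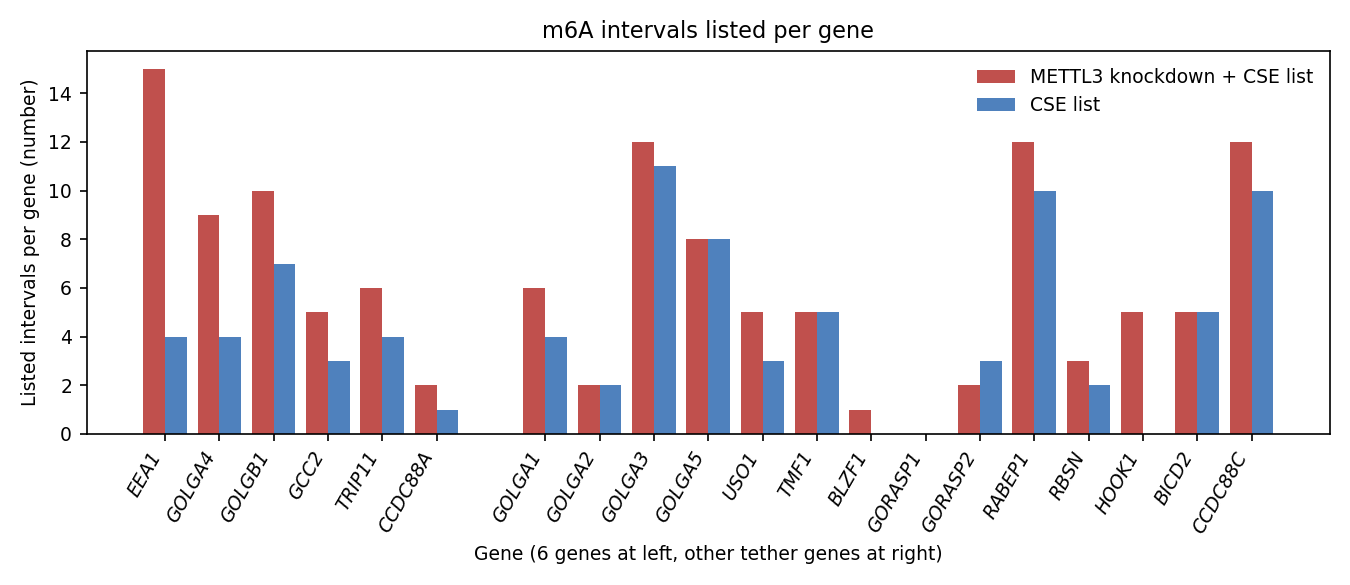
Number of listed intervals per gene in the METTL3 knockdown list (left bar) and the CSE list (right bar), for the 6 genes at left and 14 other tether genes at right. EEA1 has 15 and 4, GOLGA5 has 8 and 8, and HOOK1 has 5 and 0.

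The windows did not cut through a group of intervals. The nearest interval outside a window lay 18759 nt beyond that of GOLGA4 in the knockdown list (102 nt wide, score 297) and 24810 nt beyond that of GCC2 in the CSE list (240 nt wide, score 94.7). Inside, the interval closest to a border was GCC2 exon 4, 3854 nt from it, in the knockdown list, and EEA1 exon 26, 7716 nt from it, in the CSE list.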

How the data were processed

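The submitters' processing notes name HISAT2 2.0.4 as a tool and hg19 as the build. Each deposited list gives chromosome, start, end, name, score and strand of m6A intervals. Per the file contents, interval names begin with MACS, a peak caller; its version, its settings and whether calls were selected are not stated. The score is the authors' deposited value per interval, with no stated scale, and was compared only within a list; an alternative kept scores of at least 100 in both lists. Intervals of a gene were those overlapping its window on its strand, and at least 1 shared bp on the same strand counted as overlap between lists. An interval was matched to an exon of GENCODE release 29 (GRCh38) where its width equalled the exon's length and the spacing to at least 1 other matched interval equalled that of the exons. No position was carried between builds. On simulated lists made from 200 genes, 99.5% of 600 intervals were matched to their gene, and 0 random decoys were matched. Sequences come from the GENCODE transcripts.

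The members and lists were chosen with earlier results of these data known. All 6 genes were described, and of the other tether genes the 3 nearest by interval numbers and the 3 with the largest difference, ties by symbol; genes tied with these are named too. Windows of other genes were written from general knowledge and kept where chromosome and strand matched the annotation and the length lay within 10% of it, which left out GCC1. Scripts used Python 3.11.15, pandas 2.3.3 and scipy 1.17.1. The alternatives were other overlap rules, score limits, width limits, wider windows, each gene left out and, for other tethers, genes with a matching exon only.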

Additional observations from a re-analysis of the deposited data

Results flagged for a closer look

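Running numbers in the names of the deposited intervals, which no comparison of interval numbers used, held 74 CSE numbers without a listed interval in the 11 stretches where the 27 knockdown-only intervals of the 6 genes lie. They are given because no comparison above rests on these numbers and many are missing from the list. What the numbers count is not stated. As the stretches could reach beyond a gene, the missing numbers do not all belong to the 6 genes. Over the whole lists, 96.2% of the knockdown-only intervals that lie between CSE intervals fell into a stretch with at least 1 missing CSE number.

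Between EEA1 exons 24 and 19, 4 CSE numbers had no listed interval, and 4 knockdown-only exons lie there. Within the EEA1 intervals of the knockdown list 0 numbers were missing, against 4 within those of the CSE list. GCC2 also had fewer missing in the knockdown list, 4 against 11. The other genes had more missing in the knockdown list: GOLGA4 4 against 2, GOLGB1 6 against 3, TRIP11 3 against 1 and CCDC88A 4 against 0. Each count runs from the first to the last listed interval of the gene in that list. The stretches compared thus differ in extent, at GOLGA4 13 numbers against 6, and nothing is read from these pairs. For CCDC88A the single CSE interval left no room for a missing number. The part of these unlisted numbers in the difference was not tested.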

How the results depend on the processing

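Of 30 values under alternatives, 23 stayed within 1.5 times the reported count or within the counting interval, 7 moved and 0 reversed. Only a ratio could be labelled as reversed, so for counts and shares that outcome was fixed beforehand. Reciprocal overlap of 50% and identical borders gave the reported counts of 27 knockdown-only, 3 CSE-only and 20 shared intervals. These rules could not change the counts, because every shared interval had identical borders. Among the 50% of intervals with the highest scores in their list there were 11 knockdown-only, 0 CSE-only and 10 shared intervals, fewer by construction, and the ratio of interval numbers was 2.10. With scores of at least 100 in both lists 13 intervals were shared and the ratio was 2.40. Leaving out each gene in turn gave ratios from 1.68 (without EEA1) to 2.31 (without GOLGB1). Without EEA1, a choice made after seeing the data, 16 intervals were knockdown-only. By covered length the ratio was 1.16, since the shared intervals include the widest. Counted up to 500 nt in place of 300 nt, 100% of knockdown-only intervals were short. Over the 12 other tether genes with a matching exon, a choice made after seeing the data, the ratio was 1.22. With 1 transcript per gene 96% of intervals matched an exon. No replicate could be left out, as each condition had 1 list. No paired analysis was possible because the groups compared share no replicate lists and the results come from no test. Read depth is unknown, so no detection limit can be given.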
